A study of Mus musculus with 2 samples.

Results

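The 2'-5' oligoadenylate synthetase (Oas) family was read on 2 expression arrays of RAW264.7 cells, macrophage-like mouse cells grown from a tumour induced by Abelson leukaemia virus. One array held RNA labelled control and the other RNA labelled Lamtor1 knockdown, so that each group had 1 array, no residual variance and no statistical test. Lamtor1 encodes a lysosomal membrane protein that anchors the Ragulator complex, through which amino acid supply acts on the kinase mTORC1. Both samples carry the same protocol text, in which cells received a lentiviral mixture of 2 shRNA vectors against Lamtor1 and then went through limiting dilution. The labels do not say how the control cells were treated, nor if the knockdown cells were 1 clone or a pool. The 10 members, Oas1a, Oas1b, Oas1c, Oas1d, Oas1f, Oas1g, Oas2, Oas3, Oasl1 and Oasl2, were taken by gene symbol from the 22801 genes named on the array. They were read by 13 probes of 60 bases, of which 3 genes had 2 probes each and 7 genes had 1. The scanner marked 12 of these probes as well above background on either array or both, and these are called measured. For 10 it did so on both arrays.

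Each array held 43020 spots outside the controls, of which 53.3% in the control and 52.9% in the knockdown were well above background, and none was saturated. A level below is log2 of a probe's processed signal minus the 75th percentile of its array, and a difference is the knockdown level minus the control level. The target of the knockdown, Lamtor1, went from a level of 4.10 to -0.43, which is 4.34% of the control signal. All 8 macrophage markers looked up were well above background on both arrays, with differences from -1.56 for Adgre1 to 1.52 for Fcgr3. None of 3 B cell markers and none of 4 epithelial markers was above background on either array, whereas 2 of 4 T cell markers, Cd3e and Cd4, were, with differences of 0.05 and 0.07. Of 4 fibroblast markers 1 was measured, and of 3 plasmacytoid dendritic cell markers Siglech and Bst2 were, with differences of -0.15 and -1.26. The part of these markers in the results below was not tested.

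Oas enzymes are sensors of double-stranded RNA. On binding it they join ATP into short chains with 2'-5' bonds, called 2-5A, a messenger of the antiviral response that leads to the decay of RNA in the cell and so slows viral growth. The genes are classic targets of interferon, and macrophages express many of them. In the mouse, Oas1a and Oas1g encode active synthetases, whereas several other Oas1 copies have lost the activity. Oas2 and Oas3 carry repeated synthetase units, and Oasl1 and Oasl2 end in ubiquitin-like domains.

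Interferon acts on such genes through a factor complex that includes Stat2 and Irf9 and through other Irf proteins, which bind repeats of GAAA at a set spacing. Promoter windows of 300 bases, from 250 before to 50 after the start, were held in the RefSeq table (GRCm38.p6) for 7 members and not for Oas1b, Oas1d and Oas2. The sequence GAAANNGAAA, on either strand, was found in 4 of those 7 windows and in 3.44% of all 32851 windows. Its longer form with 3 copies, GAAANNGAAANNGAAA, which contains the shorter one, was found in 3 of the 7 and in 0.116% of all windows. Those 3, of Oas1a, Oas1c and Oas1g, hold the same 16 bases in related gene copies, so they are not independent finds. The stretches are shown because Oas genes differ in whether they hold the repeat, with the repeat in capitals and all read on the minus strand of the chromosome, the strand of these genes. They lie at chr5:120907505-120907570 for Oas1a, chr5:120887591-120887656 for Oas1g, chr5:120812588-120812653 for Oas1c and chr5:120777700-120777759 for Oas3.
Oas1a: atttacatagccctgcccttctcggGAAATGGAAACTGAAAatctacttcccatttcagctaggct
Oas1g: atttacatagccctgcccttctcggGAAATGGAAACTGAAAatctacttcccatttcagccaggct
Oas1c: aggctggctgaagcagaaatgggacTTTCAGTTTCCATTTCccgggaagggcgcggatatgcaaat
Oas3: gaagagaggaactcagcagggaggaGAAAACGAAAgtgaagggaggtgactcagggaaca
The repeat sat 20 to 5 bases before the start in Oas1a and 18 to 3 bases before it in Oas1g. In Oas1c it lay 114 to 99 bases before the start and on the other strand, and in Oas3 the short form lay 75 to 66 bases before it. The windows of Oas1f, Oasl1 and Oasl2 held neither form. The Stat site TTCNNNGAA was found in the Oas1a window alone among the 7, and in 8.30% of all windows, and the E-box CACGTG in none of the 7 and in 7.15% of all. A match is a description of letters, not evidence of binding.

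The largest differences in the family were those of the Oas-like genes. Oasl2, a synthetase with ubiquitin-like domains, had a processed signal of 332 in the control and 18.0 in the knockdown, where its probe (A_51_P387123) was not well above background. Its levels were -1.82 and -6.12, and since the lower one is only a limit, Oasl2 was at least 17.6-fold lower in the knockdown. With the normexp background correction in place of the scanner's, the same probe was 4.99-fold lower, so bounds hold for the scanner's signal alone. For the bound the knockdown level was set at the dimmest signal that the scanner still marked on that array, or at the probe's own if that was brighter, and bounds below were made in the same way.

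Oasl1 lacks synthetase activity and is known as a repressor of Irf7 translation. Its signal was 9243 in the control and 1352 in the knockdown, well above background on both arrays. The difference was -2.87, a 7.32-fold lower signal, at rank 355 from the lowest of the 21864 probes measured. In cultured bulk samples such as these, fewer cells that express a gene and less RNA per cell cannot be told apart.

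Oas2, whose product carries a pair of synthetase units, had a signal of 5833 in the control and 1276 in the knockdown. This 4.90-fold lower signal, a difference of -2.29, left 20.4% of the control signal. Oas3, which makes the largest synthetase, lies beside Oas2 on the chromosome. Its signal was 2084 in the control and 1478 in the knockdown, 66.2% of the control and a difference of -0.59. Oas2 was past 2-fold and Oas3 was not.

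The Oas1 copies lay closer to 0, with a median of -0.67 over their 8 measured probes and a range from -1.23 to 0.64. Oas1a, an active synthetase, had 2 probes with signals of 4303 and 27166 in the control and 3033 and 17504 in the knockdown. The differences were -0.60 and -0.73, so both probes were lower in the knockdown by less than 2-fold. The transcripts listed for the probe with the difference of -0.73 (A_55_P1998943) are those of Oas1a and Oas1g, so its signal cannot be assigned to 1 of these genes.

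For Oas1g, the near copy of Oas1a whose promoter stretch is printed above, the array gave little signal. One probe (A_55_P1998977) was not well above background on either array. The other (A_55_P1998979), which lies 60 bases away and also lists Oas1a transcripts, had a signal of 33.2 in the control and 16.1 in the knockdown, where it was not well above background. Its difference of -1.15 gives a bound of at least 1.77-fold lower in the knockdown, inside 2-fold.

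Oas1c and Oas1f had signals of 1465 and 10568 in the control and 1030 and 6688 in the knockdown. The differences were -0.61 and -0.76. Oas1d, a copy known from oocytes, had a higher signal in the knockdown, 215 against 129 in the control, a difference of 0.64. Among the measured probes of the family, those of Oas1d and 1 of Oas1b were those with a higher signal in the knockdown.

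Oas1b is the copy tied to resistance against flaviviruses in some mouse strains, and its probes did not move together. The first (A_55_P1959064) had signals of 410 in the control and 188 in the knockdown, a 2.34-fold lower signal and a difference of -1.23, or 1.94-fold with normexp. The second (A_55_P1998962), 159 bases further along the chromosome in the mm9 positions of the scanner files, had signals of 18028 and 22602 and a difference of 0.23, about the size of its scanner error. A probe with no gene symbol that is described as Oas1b and shares 43 bases with the second gave 0.36. The Oas1b probes therefore gave no single direction for the gene. The first lists 2 RefSeq transcripts, 1 of them assigned to Oas1b by the current gene names used here. The second lists 1, shared with the first, which those names did not assign to any gene.

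The Oas1 copies share long stretches, and a probe may read more than its own gene. Of 116 pairs among 16 Oas probes, only 4 were the same at 20 or more of 30 bases. The pairs below had the closest match over 30 bases, and are shown because probes so alike gave different signs or like values. Capitals mark the bases that differ.
Oas1c: tgagatttgaagcactGaattaaaTcaCaa
Oas1d: tgagatttgaagcactAaattaaaGcaAaa
Oas1a: tgtccacctgttggAaggttctgtcTGaCA
Oas1f: tgtccacctgttggGaggttctgtcCAaTG
The Oas1c and Oas1d stretches were the same at 27 of 30 bases, yet their probes differed in sign, -0.61 and 0.64. The Oas1a and Oas1f stretches were the same at 25 of 30 bases, and their probes gave -0.73 and -0.76. How much of any signal came from a neighbouring copy was not tested.

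**Figure D1:**
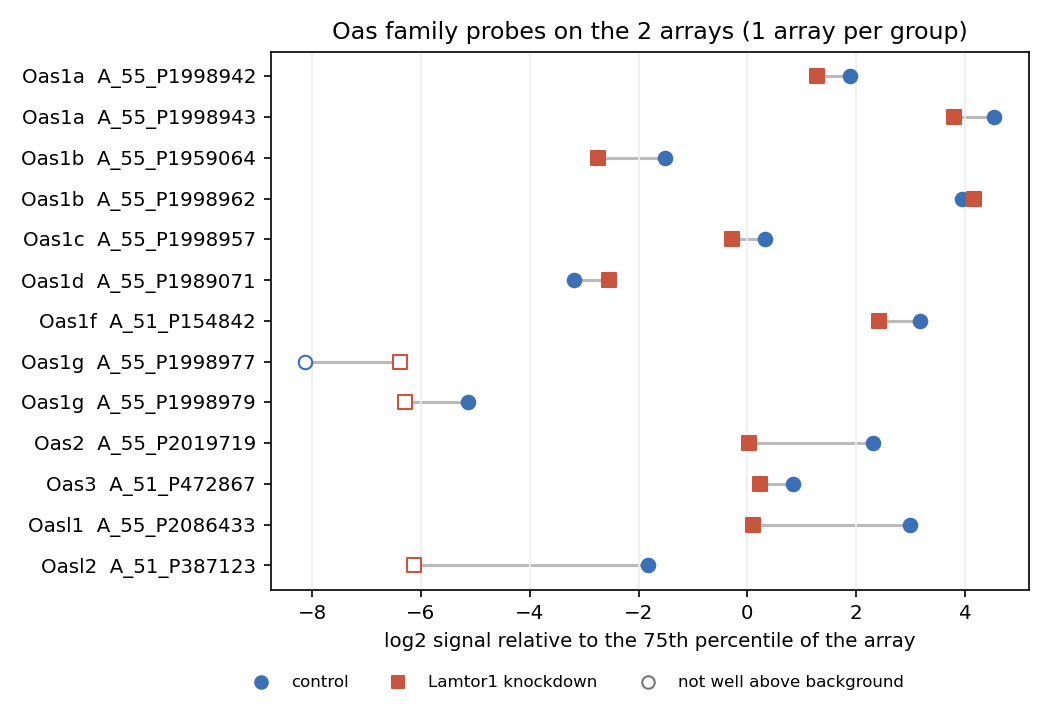
Levels of the 13 Oas family probes on each array, as log2 signal relative to the 75th percentile of the array (x axis), with the control as circles, the Lamtor1 knockdown as squares and open marks where a probe was not well above background. The knockdown mark lies far to the left of the control mark for Oas2, Oasl1 and Oasl2, and to its right for Oas1d, for 1 Oas1b probe and for the Oas1g probe below background on both arrays; positions of different probes are not comparable.

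Over the family, 5 of the 12 measured probes were at least 2-fold lower in the knockdown, where 8.36% of all measured probes were. None of the 12 was at least 2-fold higher, where 8.46% of all were. One of the 5 is the Oas1g probe whose bound lies inside 2-fold. In all 10 of the 12 probes had differences below 0, as had 12375 of all 21864 measured probes. The median of the 12 was -0.75 against -0.07 over all measured probes. Counted as genes, with Oas1b taken at its brighter probe, 4 of 10 members (Oas1g, Oas2, Oasl1 and Oasl2) were at least 2-fold lower, where 8.35% of all genes measured were. Oas1g is counted there by the same dim probe, whose bound of 1.77-fold lies inside 2-fold. None of the 10 genes was at least 2-fold higher, where 9.00% of all were, and the median over the 10 genes was -0.75 against -0.05.

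The scanner's own error estimate for a difference was 0.20 to 0.21 in the 10 probes well above background on both arrays. The differences of Oas2, Oasl1 and the lower Oas1b probe exceeded it several times over. Those of Oas1a, Oas1c, Oas1d, Oas1f and Oas3 also exceeded it, the smallest in size being -0.59 for Oas3, with Oas1d higher at 0.64. That of the higher Oas1b probe was about the size of the error. This estimate rests on a preset error of 10% per signal in the scanner software, covers the spot and the scan, and says nothing of the spread between cultures, which 1 array per group cannot give.

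**Figure D2:**
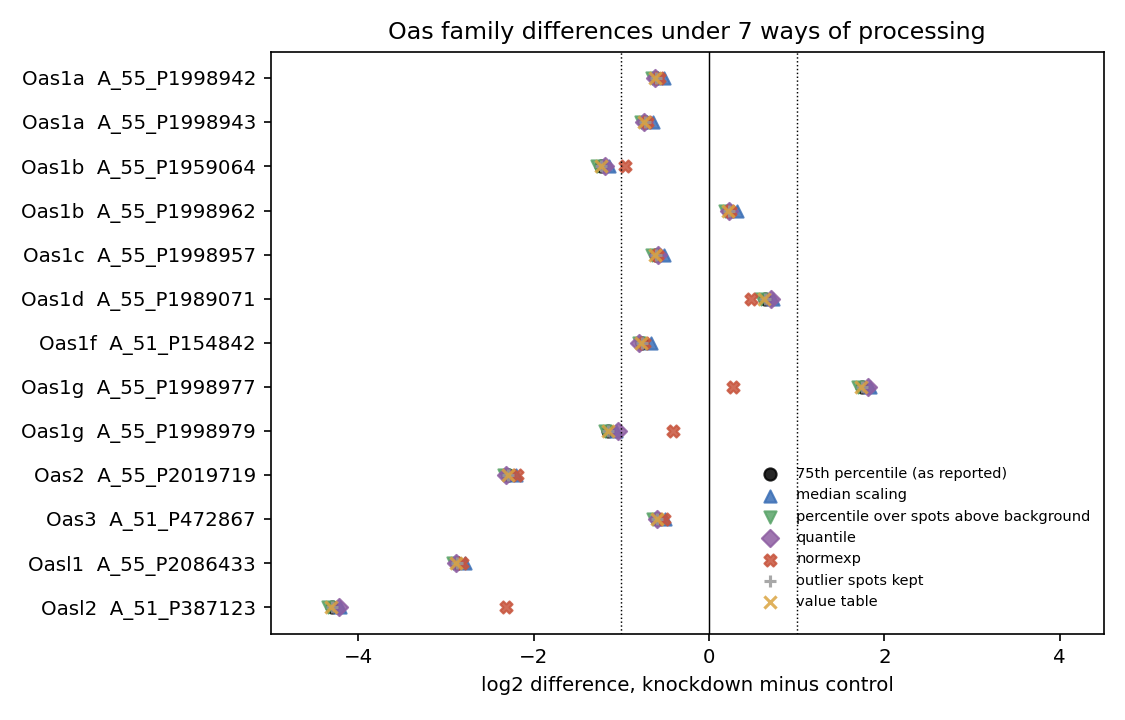
Difference between knockdown and control (x axis, log2) of each family probe under the processing reported and 6 alternatives, 1 symbol for each; dotted lines mark 2-fold. The normexp background correction moved the dim Oasl2 and Oas1g probes toward 0, to -2.32 for Oasl2, and every probe stayed on its side of 0.

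The genes of the 2-5A pathway that are reported here lay near 0 at the probe used for each. Abce1, which also acts in ribosome recycling, had a difference of 0.05, and Pde12, which degrades 2-5A, one of 0.07. Akap7 and Enpp1, also able to cleave 2-5A, had differences of -0.07 and -0.28, the latter with a probe above background in the control alone. The 3 measured probes of Akap7 ranged from -0.42 to -0.07. Of these 4 genes 0 were at least 2-fold higher or lower, and their median was -0.01. Outside the members, Oas1e had a difference of -0.71, and neither probe of Oas1h was above background on either array.

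In the signalling chain that induces the family, the receptor and kinase genes lay inside 2-fold. The receptor subunits Ifnar1 and Ifnar2 had differences of -0.17 and -0.40, and the kinases Jak1 and Tyk2 0.41 and -0.15. Of the factors that bind the repeats printed above, Irf9 went from a level of 1.97 to 0.42, a 2.92-fold lower signal. Irf7, the target of Oasl1, went from 0.29 to -4.28, a 23.7-fold lower signal, or 11.4-fold with normexp. Usp18, which dampens receptor signalling and is itself induced by interferon, was 5.77-fold lower. Stat2, the partner of Irf9, had a difference of -0.38. Irf1, Irf3 and Socs1 had differences of -0.26, -0.10 and -0.66. Of these 11 genes 3 were at least 2-fold lower and 0 higher, with a median of -0.38.

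Interferon genes themselves gave little signal. Of 8 with a probe, 4 were measured, and none of those was past 2-fold, with Ifna1 at 0.66, Ifnab at 0.31 and Ifnl3 at 0.16. Ifnb1 was not above background on either array. The list of sensors of foreign nucleic acid held 10 genes, not all of them sensors themselves, such as Adar, an RNA-editing enzyme. All 10 were measured, and 5, Adar among them, were at least 2-fold lower and 0 higher, with a median of -0.73. Dhx58, Zbp1 and Ifih1, which bind viral nucleic acid, were 7.76-fold, 5.88-fold and 3.79-fold lower, with Zbp1 at 3.60-fold under normexp. The count was 4 under median scaling and 4 with the median over a gene's probes, and the measured probes of Adar gave -1.08 and 0.02.

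Of 18 measured antiviral genes that interferon induces, 15 were at least 2-fold lower and 0 higher, with a median of -1.71. Differences above 0 were seen in 2 of the 18. These were Herc6, at 0.78 with its other probe at 1.05, and Zc3hav1 at 0.19. The lower count was 12 under normexp, where Ifit1, Ifit2 and Ifit3 came inside 2-fold, and 11 among genes above background on both arrays. Rtp4 was 88.9-fold lower, or 53.0-fold with normexp. Mx2, dim in the knockdown, was at least 22.1-fold lower, or 8.20-fold with normexp. The probes of Cmpk2 differed: the one used, dim in the knockdown, was at least 16.3-fold lower, or 4.88-fold with normexp, and the other had a difference of -1.55. The medians of the Oas family and of the sensor list lay between that of the antiviral genes and that of all genes.

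**Figure D3:**
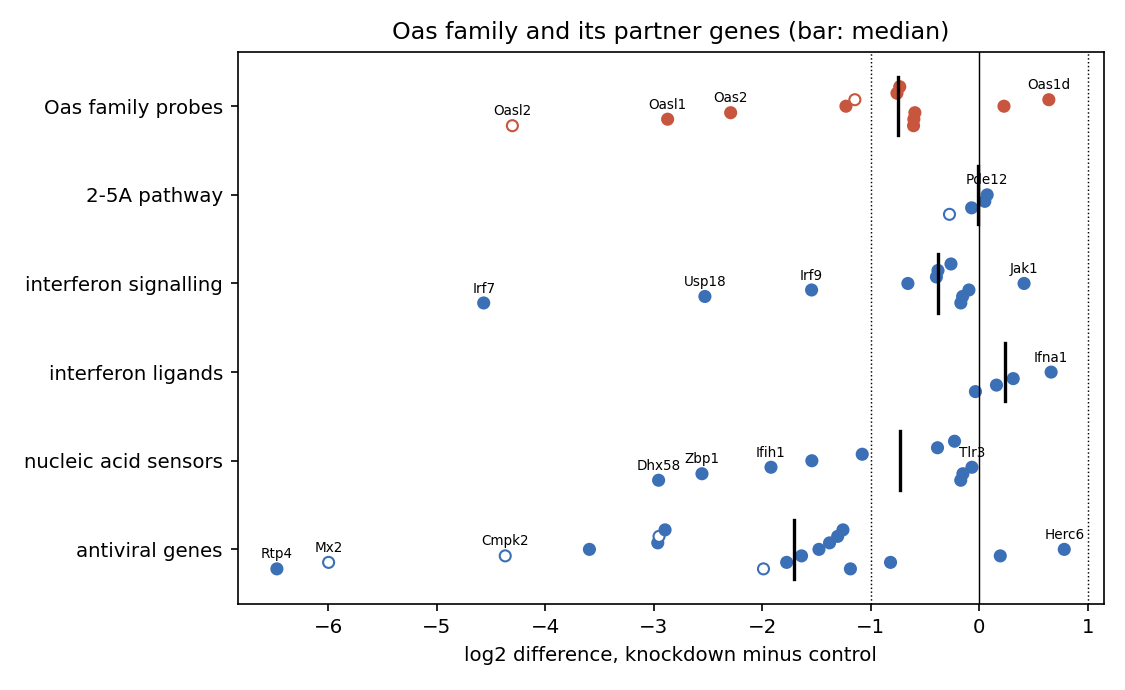
Difference between knockdown and control (x axis, log2) for the measured Oas family probes and for the measured genes of 5 partner lists, with a bar at each median, open marks where 1 array was not well above background, and dotted lines at 2-fold. Most antiviral genes lie left of the lower line, the 2-5A pathway genes lie between -0.28 and 0.07, and the family spreads from Oasl2 at -4.30 to Oas1d at 0.64.

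The members lie in 2 groups on chromosome 5 in the mm9 positions of the scanner files. Oas1, Oas2 and Oas3 probes span chr5:121180343-121371654, or 191 kb, and the Oasl1 and Oasl2 probes span chr5:115362168-115387920, or 25.8 kb. Within 250 kb of the first group, 14 probes of other genes were measured, with a median of 0.10. None of the 14 was at least 2-fold lower and 1 was at least 2-fold higher, where 8.36% and 8.46% of all measured probes were. The higher one was an Iqcd probe dim in the control at 2.35, or 0.50 with normexp, while the other Iqcd probe gave 0.47. The nearest named genes, Rasal1 and Dtx1 on the Oas2 side, had differences of -0.76 and 0.24. C78228, between Oas2 and Oas3, had -0.30, and Ptpn11, beyond Oas1d, had 0.04. The rest were Plbd2 at 0.56, Tpcn1 at 0.17, Slc8b1 at 0.28 and 0.25, Ddx54 at -0.08 and -0.05, Rita1 at -0.43 and 1110003F02Rik at -0.28.

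Around Oasl1 and Oasl2, 19 reported probes of other genes were measured, with a median of 0.17. Of the 19, 1 was at least 2-fold lower and 3 at least 2-fold higher, where 8.36% and 8.46% of all measured probes were. The lower one, 1200016E24Rik, the nearest measured gene on the Oasl2 side, had a signal of 12128 in the control and 4942 in the knockdown, a difference of -1.39. The higher ones were the Gltp probes, at 1.33 and 1.24, and a Cabp1 probe at 1.39, or 0.72 with normexp, 235 to 243 kb away. The remaining 15 probes lay between Unc119b at -0.24 and Ankrd13a at 0.60. Among them was 2210016L21Rik, the nearest measured gene reported on the Oasl1 side, 10.6 kb away, at 0.13.

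**Figure D4:**
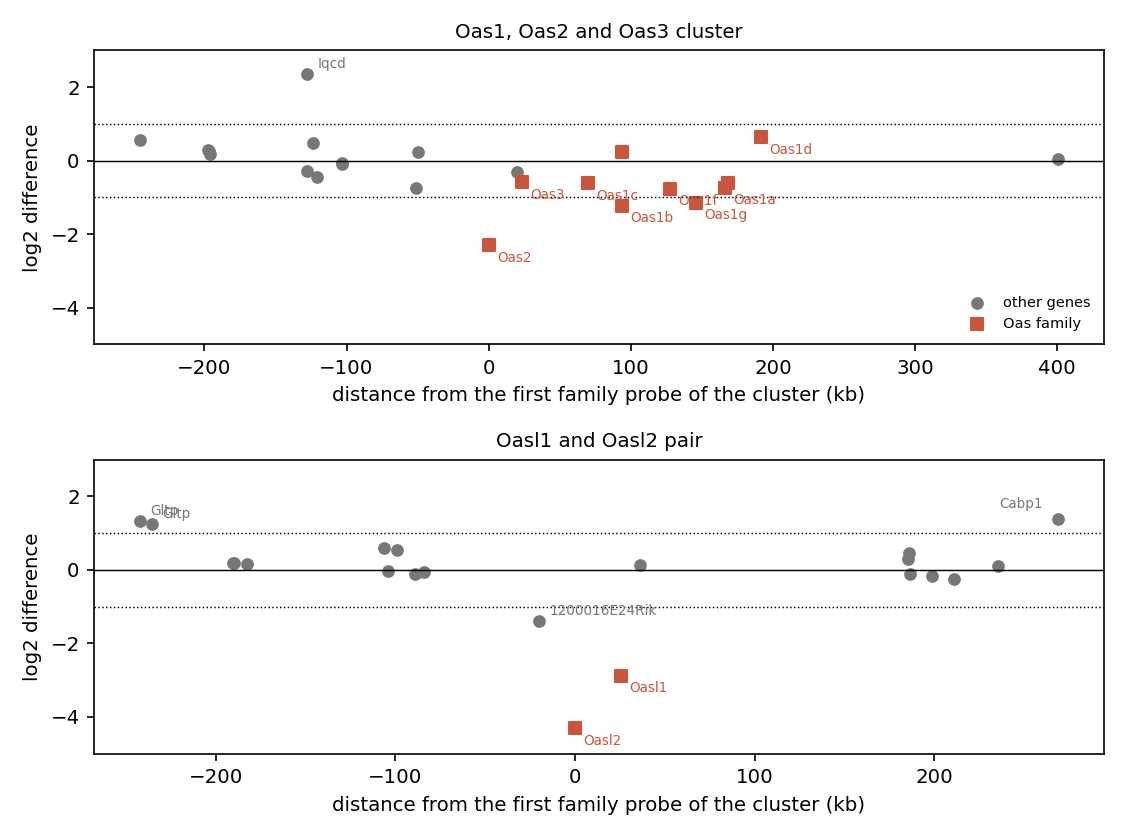
Differences between knockdown and control (y axis, log2) of measured probes by distance (x axis, kb) from the first family probe of each group, with Oas family probes as squares, other genes as circles and dotted lines at 2-fold. The circles scatter about 0 around the Oas1, Oas2 and Oas3 group, where Oas2 at -2.29 is the lowest point, and Oasl1 and Oasl2 are the lowest points plotted in the lower panel.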

How the data were processed

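Each sample's RNA (200 ng) was copied from oligo-dT primers and labelled with Cy3 for a 1-colour Agilent mouse array, per the labels' protocols. The deposited files hold the intensity of each spot as processed by the scanner software, Agilent Feature Extraction 10.7.3.1, per the submitters' processing notes, detrended across the array without subtraction of each spot's local background and with surrogates for signals not above background, per the file headers. The authors' value table matched those intensities within a ratio of 0.995 to 1.005, so it is on a linear scale, and its medians over spots that are not controls were 34.2 and 34.4. Control spots and outlier-flagged spots (162 and 177) were left out, repeated spots of a probe were averaged, and log2 signals were set relative to the 75th percentile of each array, 1172 and 1255. With 1 array per group no p-value was computed, a difference of 2-fold or more (1 on the log2 scale) was counted, and no replicate spread exists. The difference between the arrays at a single spot had a median SD of 0.0784 (log2) over 216 probes spotted several times, combined from the spread of repeats on each array. A gene with several probes was read at the probe with the highest mean level. Normexp correction (offset 50) and quantile scaling used limma 3.58.1 in R 4.3.3, and the calculations were tested on simulated data. Some genes of the lists and neighbourhoods are not reported here, and the counts and medians of lists and neighbours leave them out. Named were all members, every other gene of the 2-5A, signalling and other Oas lists, the 3 largest differences of other lists, and measured neighbours within 250 kb. Some further genes of the lists were named where their sign, their probes or their count under other processing differed. Where the rule gave many neighbours on the Oasl side, the extremes and the nearest were named. The members and lists were chosen with earlier results of these data known.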

Additional observations from a re-analysis of the deposited data

How the results depend on the processing

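All 13 family probes, 1 of them below background on both arrays, kept the sign of their difference under the 6 alternatives of scaling and background. Some of these could hardly change a sign. No family probe was flagged, so keeping outlier spots left them as they were, and the value table holds nearly the same signals. Median scaling and the percentile over spots above background each add 1 constant to every difference, 0.0925 and -0.0422. Of 282 recomputed values, with these settings included, 237 stayed close and 45 moved further. Close means within 0.0784 (log2, the median SD of a single spot's difference) or, for counts, within 1.5 times. The sign changed in 2, both of them the 2-5A median, from -0.01 to 0.0817 under median scaling and to 0.0500 among genes above background on both arrays, and no recomputed difference past 2-fold changed sign. Scaling moved the median of all probes by at most 0.09. Among probes well above background on both arrays, 3 of 10 family probes were at least 2-fold lower, where 1027 of all 19678 were. Normexp left 3 of the 12 measured family probes at least 2-fold lower, for which no share over all probes is given. With no filter on dim probes 1 family probe was at least 2-fold higher, the Oas1g probe below background on both arrays. With normexp the Oas1b difference became -0.95 and the Oas1g difference -0.41. Under median scaling the medians became -0.65 for family probes and genes, -0.29 for signalling, 0.33 for ligands, -0.64 for sensors, -1.61 for antiviral genes, 0.20 for neighbours of the Oas1 group and 0.26 for those of the Oasl pair. Under normexp they became -0.65 for family probes and genes, 0.0686 for ligands and -1.34 for antiviral genes, with 0 higher neighbours of the Oas1 group, and 12 rather than 15 antiviral genes stayed past 2-fold. With dim genes left out the antiviral count was 11, and the sensor count 4 rather than 5 under median scaling and with the median over a gene's probes. With the median over a gene's probes they became -0.64 for family genes, 0.0544 for ligands and -0.46 for sensors. With no filter they became 0.0785 for ligands and -1.56 for antiviral genes, with quantile scaling 0.33 for ligands, and among antiviral genes above background on both arrays -1.43. Median scaling adds 1 constant, 0.0925, to every difference, so all differences and medians under it moved past 0.0784 together. The cause of the other shifts was not tested, apart from the smaller set of genes where dim ones were left out. No paired analysis was possible because each group has 1 array. For the same reason no replicate could be left out, and a slide block could not be fitted, since both arrays were on 1 slide. Signal over background limits Oasl2 and Oas1g to bounds.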

Other observations

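The repeat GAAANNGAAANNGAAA found in the windows of Oas1a, Oas1c and Oas1g was also held by the RefSeq windows of 33 genes outside the family. Of these 18 were measured, 4 (22.2%) had a signal at least 2-fold lower in the knockdown and 1 (5.56%) one at least 2-fold higher, with a median of -0.28. Among all 10612 measured genes with a window, 8.28% were lower and 8.95% higher, with a median of -0.04. The lower genes, named after their values were seen, were Apol9b, Apol9a, Isg15 and Bst2. Apol9a went from a level of 0.19 to -3.78, a 15.7-fold lower signal, and Apol9b, its near copy, from -0.20 to -5.78, where it was not well above background. Isg15, the ubiquitin-like interferon product, was 7.80-fold lower, and Bst2, which tethers budding virus to the cell, was 2.39-fold lower. Both are also in the antiviral list. The higher gene was Kcnab1, a potassium channel subunit, 4.62-fold higher.

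With the shorter repeat GAAANNGAAA, 388 genes outside the family were measured, of which 59 (15.2%) were at least 2-fold lower and 34 (8.76%) at least 2-fold higher, with a median of -0.10. Within the family, Oas1a, Oas1c and Oas1g, with the longer form, had differences of -0.73, -0.61 and -1.15, and Oas3, with the shorter, -0.59. Oas1f, Oasl1 and Oasl2, whose windows held neither form, had -0.76, -2.87 and -4.30. The probes of Oas1g and Oasl2 were dim in the knockdown. These counts and differences describe 2 arrays and were not tested.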
